A study of Sus scrofa with 6 samples.

Results

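The comparison described here set the peripheral blood mononuclear cell (PBMC) libraries that held leptin (LEP) RNA against those that held almost none. PBMCs are the lymphocytes and monocytes that remain after granulocytes and red cells are spun away. The 6 libraries came from Yorkshire pigs at 6 months of age. The deposited labels call 3 of them WT and 3 leptin-overexpressing, with replicates numbered 1 to 3 in each. All 6 libraries entered the comparison, grouped by their own LEP level and not by their labels. Libraries with LEP at 1 FPKM (fragments per kilobase of transcript, scaled to the mapped fragments of the library) or more were the ones labelled leptin 2, leptin 3 and WT 1. Libraries with LEP under 1 FPKM were those labelled leptin 1, WT 2 and WT 3. Each group therefore goes against a deposited genotype label in 1 library, 2 libraries in all, and neither group is called a genotype here. Values of 3 libraries are given below in the order just used.

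According to the study's methods, the leptin-overexpressing pigs were made by nuclear transfer from fibroblasts of a male fetus that had been electroporated with the pig leptin open reading frame in a pIRES2-AcGFP1 vector and selected with an antibiotic. The study's abstract and results name the leptin promoter as the driver of the transgene, whereas the cloning steps in its methods mention no leptin promoter. The controls were nontransgenic pigs. Leptin is a hormone made mainly by fat cells that reports the size of fat stores to the brain. Its receptor LEPR works through the kinase JAK2 and the transcription factors STAT3 and STAT5, and SOCS proteins switch that signal off. Leukocytes also carry the receptor, and leptin is known there for favouring inflammatory over regulatory responses.

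The oligonucleotides of the study are shown because they define what a LEP value can and cannot tell. The first pair amplified the open reading frame that went into the vector, and capitals mark the bases that are the reverse complement of its TGA stop codon. The second pair was used to type the pigs by semiquantitative PCR. All are written 5′ to 3′.
pleptin_1F: ggccccagaagcacatcc
pleptin_1R: TCAgcagccagggctgag
pleptin_2F: ctttggccctatctgtcctacgttg
pleptin_2R: tcgccagggtctggtccatct
Because the insert is the pig's own coding sequence, one FPKM value per gene cannot separate transgene from endogenous LEP RNA.

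LEP (ENSSSCG00000016588, chromosome 18, bases 21201785 to 21204671; positions are the deposited table's, and its genome build is not given in the sources used here) was at 18.3, 39.3 and 50.0 FPKM in the libraries with LEP RNA. In the libraries without it, the values were 0, 0 and 0.118 FPKM. The highest LEP value of the series was thus in a library labelled wild type, and a library labelled leptin-overexpressing was listed at 0. The library just inside the threshold was leptin 2 at 18.3 FPKM and the one just outside it was WT 3 at 0.118 FPKM. These values chose the groups, so they carry no test and LEP was left out of every fit.

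**Figure D1:**
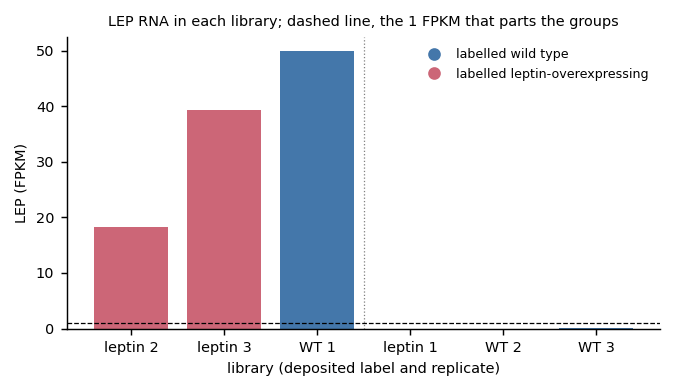
LEP RNA in FPKM (vertical axis, linear) in each library, ordered by group; bar colour shows the deposited label and the dashed line the 1 FPKM threshold. The 3 bars on the left reach 18.3, 39.3 and 50.0 FPKM, and those on the right lie at 0.118 FPKM or below.

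FPKM values give no read depth, so depth could not be compared. The FPKM of a library summed to between 444888 and 503140. PTPRC (CD45), which all leukocytes carry, lay between 431 and 453 FPKM in the 6 libraries, and the T cell, B cell and monocyte markers CD3E, CD79A and CD14 were present in each. The libraries of a LEP group did not resemble each other more than they resembled the rest: Pearson's r across genes had a median of 0.9657 over the 6 pairs within a group and 0.9682 over the 9 pairs between groups. The Y-linked gene DDX3Y was at 35.0 FPKM in WT 1, 31.1 in WT 2 and 20.4 in leptin 1, and at 0.00917 FPKM or less in the other libraries, and USP9Y, also on the Y chromosome, was present in the same 3 libraries. The row named TMSB4Y lies on the X chromosome in the table, was at 3318 FPKM or more in every library and was not used for this. DDX3Y was thus present in 1 library with LEP RNA and in 2 without it. It was near 0 in leptin 2 and leptin 3, although the methods describe the donor cells as male. Differences by label given below take the labels as deposited, including the 2 that LEP RNA goes against. With the presence of DDX3Y RNA as a term in the fit, the same number of genes passed the threshold in each direction. The library labelled WT 1 stood apart in granulocyte genes. For genes with a fit that left it out, a difference that then moved by more than 1.5 times is given both ways, or as a range over the libraries left out for STAT3, STAT5A, TNF and FABP3.

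Of 11564 genes in the table, 10734 were at 1 FPKM or more in at least 3 libraries and were tested. A gene passed if its adjusted p was under 0.05 and it differed at least 2-fold. By this threshold 2 genes were higher in the libraries with LEP RNA (0.0186% of those tested) and 2 were lower (0.0186%). All 4 reached 1 FPKM in 3 libraries only through the group in which they are high, so they had to differ to be tested at all. At an unadjusted p under 0.05, 149 genes were higher (1.39%) and 350 lower (3.26%), so 29.9% of these genes were higher. Levels of the 2 groups did not overlap for 266 genes that were higher (2.48%) and 971 that were lower (9.05%). The median difference over all genes tested was -0.10 on the log2(FPKM + 1) scale. After median-of-ratios scaling of the libraries the split at an unadjusted p under 0.05 turned to 315 higher and 178 lower, with 63.9% higher. The direction of small differences therefore depended on the scaling, and the lists below are read against the median of -0.10. With 1 library left out, the share of all genes with an unadjusted p under 0.05 was highest without leptin 3, at 2.94% higher and 7.97% lower. No member of the cell type and pathway lists passed the adjusted p. With 3 libraries against 3, an exact two-sided permutation test of a single gene cannot give a p below 0.1. Labels do not say more about the replicates than their numbers, and p-values measure the spread between these libraries.

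The only gene to pass that is not a small nucleolar RNA was NPW, which encodes the signalling peptide neuropeptide W. NPW (ENSSSCG00000008037, chromosome 3, 42223886 to 42224637) was at 0, 0 and 0.108 FPKM with LEP RNA. Without LEP RNA it was at 3.49, 2.29 and 3.15 FPKM. All libraries without LEP RNA lay above all of those with it, in both labels. The difference was -1.93 on the log2(FPKM + 1) scale (SE 0.16; limma, adjusted p = 0.00855). NPW entered the test only through the libraries without LEP RNA and could not be tested when any of these was left out. Its adjusted p was 0.108 without the library labelled WT 1, 0.073 without leptin 3 and 0.0532 with the deposited label as a term. Without moderated variances it was 0.399, the upper end of a range from 0.00364 over the alternatives that could be run. Grouped by the deposited labels instead, the NPW difference was -0.58 (leptin-overexpressing minus wild type).

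The other genes that passed were small nucleolar RNAs (snoRNAs), short guide RNAs of the H/ACA class that direct pseudouridylation. SNORA21 (ENSSSCG00000019358, chromosome 1, 299756994 to 299757130) was listed at 0 in all libraries with LEP RNA. The libraries without LEP RNA had 48.9, 47.2 and 78.7 FPKM of SNORA21 (adjusted p = 4.95e-05). SNORA71 (ENSSSCG00000025722, chromosome 17, 46905426 to 46905557) had the opposite pattern, with 42.4, 37.6 and 169 FPKM in the libraries with LEP RNA and 0 in the others (adjusted p = 0.00855). SNORA23 (ENSSSCG00000023953, chromosome 9, 30619 to 30803) was low, at 3.25, 2.85 and 2.98 FPKM with LEP RNA and listed at 0 in the rest (adjusted p = 0.00168). No fold is given against a group listed at 0. Each could be tested only while all libraries of its high group were kept. The SNORA71 call was lost without WT 2 (adjusted p = 0.0506), without leptin 1 (0.0746), with limma's trend and robust options (0.0982) and without moderated variances (0.621), and its adjusted p over the alternatives ran from 0.00249 to 0.621. SNORA21 lost its call without moderated variances (adjusted p = 0.082, range 9.57e-06 to 0.082).

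Each of these snoRNAs has at least 1 more copy in the table, between which reads can be divided. Summed over its 2 copies, SNORA21 was still at 0 in every library with LEP RNA and at 48.9, 136 and 78.7 FPKM in the others. Summed over 3 copies, SNORA71 was at 116, 37.6 and 212 FPKM with LEP RNA and at 27.7, 0 and 0 FPKM without. Summed over 2 copies, SNORA23 was at 9.96, 2.85 and 6.06 FPKM with LEP RNA and 5.93, 18.6 and 2.62 FPKM without, so the groups overlapped. Loci shorter than 300 bp gave most of the calls: 3 of the 111 tested passed the adjusted p, and 20.7% of them had an unadjusted p under 0.05 against 4.65% of all genes. In addition, the table holds 74 genes that are listed at 0 in 1 or more libraries but reach 20 FPKM elsewhere. When loci under 300 bp were left out, no gene passed in the higher direction and only NPW passed in the lower. When 1 FPKM was required in all 6 libraries, no gene passed in either direction, and the lowest adjusted p was 0.807.

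Genes below this threshold are named by size of difference, among those with a symbol, a 2-fold difference, an unadjusted limma p under 0.05 and groups that did not overlap. With all 6 libraries none passed the adjusted p, which was 0.483 for HIST2H2BF and 0.821 for the rest. The higher ones included S100A12, LTF and LYZ, genes of neutrophils and monocytes. S100A12, a calcium-binding alarmin of granulocytes and monocytes, was at 437, 301 and 1702 FPKM with LEP RNA and at 188, 284 and 198 FPKM without. Its difference was 1.46 (SE 0.57), and the library labelled WT 1 alone was far above the others, without which the difference was 0.72. LTF, the iron-binding granule protein lactoferrin, was at 9.92, 8.47 and 25.6 FPKM against 3.49, 7.47 and 2.48 FPKM, a difference of 1.46 (SE 0.45). LYZ, the bacteriolytic enzyme lysozyme, was at 442, 325 and 418 FPKM against 252, 129 and 175 FPKM, a difference of 1.13 (SE 0.25). Unlike S100A12, LYZ was about as high in the libraries labelled leptin 2 and WT 1.

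Whether the other higher genes share a role was not tested. SNORA12 was at 68.6, 58.8 and 149 FPKM with LEP RNA and at 14.3, 13.2 and 35.5 FPKM without (2.10, SE 0.45). HIST2H2BF, a histone H2B gene, was at 5.84, 7.32 and 6.32 FPKM against 2.33, 2.26 and 0.867 FPKM (1.45, SE 0.24). MEGF9, a membrane protein with EGF-like repeats, was at 20.7, 17.2 and 55.6 FPKM against 10.6, 12.1 and 7.56 FPKM (1.37, SE 0.41; 0.86 without WT 1). For ACTA2, the smooth muscle actin, values were 8.46, 5.44 and 7.28 FPKM against 3.60, 1.02 and 3.24 FPKM (1.23, SE 0.32). TMP-CH242-74M17.2 on chromosome 7 was at 1245, 1050 and 1377 FPKM against 881, 235 and 795 FPKM (1.15, SE 0.46; 0.54 without WT 2). As with S100A12, the WT 1 library was the highest for SNORA12 and MEGF9, while HIST2H2BF and ACTA2 were even across the libraries with LEP RNA.

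The lower genes with a symbol included members of antigen presentation and of B cells. SLA-DOB, the beta chain of the MHC class II accessory molecule DO, was at 24.3, 12.3 and 4.73 FPKM with LEP RNA and at 29.6, 38.1 and 32.9 FPKM without (-1.47, SE 0.47; -0.91 without WT 1). CD22, an inhibitory co-receptor of B cells, was at 20.7, 62.0 and 28.3 FPKM against 69.3, 79.0 and 68.0 FPKM (-1.09, SE 0.35). The library labelled leptin 3 was close to the group without LEP RNA for CD22, and leptin 2 was close to it for SLA-DOB. CENPW, a centromere protein, was at 1.92, 3.41 and 3.86 FPKM against 7.50, 6.07 and 7.41 FPKM (-1.005, SE 0.21). TSPOAP1 was at 0.726, 2.68 and 0.479 FPKM against 4.37, 4.66 and 2.97 FPKM (-1.23, SE 0.34). C7H6orf12 was at 0.359, 4.07 and 0.188 FPKM against 8.13, 7.14 and 10.5 FPKM (-2.24, SE 0.51). Without leptin 3, the one library with LEP RNA in which it was above 1 FPKM, C7H6orf12 differed by -2.90 with an adjusted p of 0.0145, in a range of 0.0145 to 1 over its alternatives, and it then entered the test only through the libraries without LEP RNA. The small RNAs SNORA81 and SCARNA2, the second a guide RNA of Cajal bodies, were lower by 2.64 (SE 0.64) and 1.05 (SE 0.28) on the log2 scale. SNORA81 was at 0, 0 and 3.71 FPKM with LEP RNA and at 7.04, 6.28 and 18.6 FPKM without. SCARNA2 was at 2.23, 0.595 and 1.51 FPKM against 4.85, 4.10 and 2.82 FPKM. Only these 7 genes met the rule besides SNORA21 and NPW.

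Among genes without a symbol, ENSSSCG00000026182 on chromosome 1 was at 463, 289 and 617 FPKM with LEP RNA and at 259, 64.4 and 140 FPKM without (1.70, SE 0.49). ENSSSCG00000022232, a locus of 121 bp on chromosome 8, was at 98.7, 200 and 953 FPKM against 0, 83.1 and 0 FPKM. Of the lower ones, ENSSSCG00000002705 on chromosome 6 was at 1.06 FPKM in leptin 2 and near 0 in the other libraries with LEP RNA, against 1.93, 2.65 and 3.44 FPKM (-1.51, SE 0.30). ENSSSCG00000022697, a locus of 211 bp on chromosome 1, was at 0, 5.69 and 2.85 FPKM against 8.62, 7.89 and 6.48 FPKM, with a difference of -1.55 that was -0.76 without leptin 2. Nothing in the sources used here says what these genes do.

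**Figure D2:**
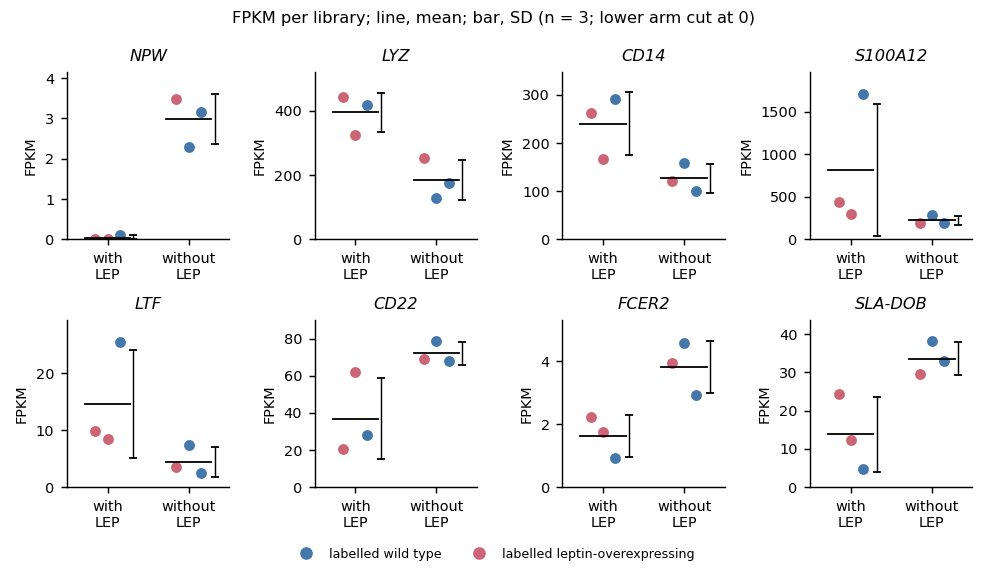
FPKM (vertical axes, linear, each from 0) of 8 named genes in the libraries with and without LEP RNA; points are libraries coloured by deposited label, lines are means and bars SD of 3 libraries. LYZ spans 325 to 442 FPKM with LEP RNA and 129 to 252 FPKM without, whereas the S100A12 mean with LEP RNA rests on 1 library at 1702 FPKM.

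B cell genes were lower in the libraries with LEP RNA as a list. All 16 members tested were lower (100%, against 71.2% of all genes), with a median of -0.42 against -0.10 over all genes. All 16 stayed lower after scaling. At an unadjusted p under 0.05, 6 of 16 were lower (37.5%, against 3.26% of all genes), and 8 of 16 (50%, against 9.05%) did not overlap between the groups. FCER2 (CD23), the low-affinity IgE receptor of mature B cells, was at 2.24, 1.75 and 0.912 FPKM against 3.94, 4.59 and 2.94 FPKM (-0.89, SE 0.23). MS4A1 (CD20) was at 88.2, 87.3 and 49.3 FPKM against 90.1, 97.1 and 127 FPKM, so that the groups did not overlap but the 3 libraries labelled leptin-overexpressing were nearly level. CD79A, a chain of the receptor's signalling unit, was at 181, 198 and 133 FPKM against 232, 248 and 224 FPKM (-0.48, SE 0.18).

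The B cell genes summed to between 596 and 915 FPKM in the libraries with LEP RNA and to between 1034 and 1078 FPKM in those without. Lower values in the libraries with LEP RNA were found within both labels for 14 of 16 members (87.5%, against 53.5% of all genes). The median was -0.82 between WT 1 and the other libraries labelled wild type, and -0.22 between leptin 2 and 3 and the library labelled leptin 1. Without the library labelled WT 1, 15 of 16 were lower, the median was -0.27 against -0.060 over all genes in that fit, and 2 of 16 had an unadjusted p under 0.05 in place of 6 (12.5%, against 2.1% of all genes). Without WT 2 that number was 3 (18.8%, against 3.62%). In bulk PBMC, a smaller share of B cells and less B cell RNA per cell cannot be told apart. Grouped by the deposited labels, the same list had a median of 0.02.

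Plasma cell genes, which mark antibody-secreting cells, were lower in 8 of 9 (88.9%, against 71.2% of all genes) with a median of -0.36. None had an unadjusted p under 0.05. The median was -0.23 without the library labelled WT 1 and -0.21 without WT 3. Without leptin 3, 3 of 9 had an unadjusted p under 0.05 in a fit in which 7.97% of all genes were lower at that p. That number was 2 without WT 2 (22.2%, against 3.62%) and 1 without leptin 2 (11.1%, against 3.34%). JCHAIN, the joining chain of IgM and IgA, was at 225, 408 and 290 FPKM with LEP RNA and at 370, 314 and 476 FPKM without. MZB1, a chaperone of immunoglobulin assembly, was at 56.3, 72.7 and 51.4 FPKM against 82.5, 58.1 and 103 FPKM. Groups overlapped for both genes, and for all 9 of the list.

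The MHC class II genes present peptides to helper T cells and are made by B cells, monocytes and dendritic cells. All 7 tested were lower in the libraries with LEP RNA (100%, against 71.2% of all genes), with a median of -0.56 against -0.10 over all genes. Of these, 4 had an unadjusted p under 0.05 (57.1%, against 3.26% of all genes) and 3 did not overlap between groups (42.9%, against 9.05%). CIITA, the transcriptional master regulator of the class, was at 26.9, 29.7 and 17.2 FPKM with LEP RNA and at 33.2, 31.0 and 44.8 FPKM without (-0.56, SE 0.24). SLA-DOA, the alpha chain that pairs with SLA-DOB, was at 17.6, 18.9 and 8.15 FPKM against 22.4, 25.8 and 25.5 FPKM (-0.77, SE 0.29; -0.41 without WT 1). SLA-DQB1 was at 251, 147 and 209 FPKM against 449, 234 and 435 FPKM (-0.85, SE 0.30), and its groups overlapped through WT 2. SLA-DRA, the common alpha chain of DR, was at 1110, 796 and 579 FPKM against 1192, 1138 and 1058 FPKM. The list summed to between 1436 and 1876 FPKM with LEP RNA and to between 2217 and 2524 FPKM without it.

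Of the 7 MHC class II genes, 6 were lower within both labels (85.7%, against 53.5% of all genes). The medians of the list were -0.92 within the wild type label and -0.34 within the leptin label. With the library labelled WT 1 left out, 6 of 7 were lower with a median of -0.41, and 3 had an unadjusted p under 0.05 (42.9%, against 2.1% of all genes in that fit). That number was 1 without WT 3 (14.3%, against 1.52%) and 2 without leptin 1 (28.6%, against 1.7%). After scaling, 6 of 7 were lower. Because B cells also make these genes, the list cannot be read apart from the B cell genes in bulk PBMC. By the deposited labels the median was 0.14.

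Of the neutrophil and granulocyte genes, 16 of 17 tested were higher in the libraries with LEP RNA, with a median of 0.44, and 16 of 17 were also higher after scaling. Of the 17, 5 had an unadjusted p under 0.05 in that direction (29.4%, against 1.39% of all genes) and 5 did not overlap (29.4%, against 2.48%). S100A8, which forms the antimicrobial protein calprotectin with S100A9, was at 225, 110 and 699 FPKM with LEP RNA and at 68.6, 120 and 66.5 FPKM without (1.65, SE 0.60; 0.93 without WT 1). S100A9 itself was at 370, 164 and 1031 FPKM against 98.0, 244 and 93.2 FPKM (1.60, SE 0.65). For both, leptin 3 lay below WT 2, so the groups overlapped. PGLYRP1, a peptidoglycan-binding granule protein, was low but did not overlap, at 3.28, 3.65 and 3.80 FPKM against 2.35, 1.80 and 2.80 FPKM (0.47, SE 0.16). MMP9, the secreted gelatinase of neutrophils, was at 225, 55.6 and 59.7 FPKM against 52.3, 38.5 and 52.1 FPKM, with leptin 2 far above the rest. The exception in direction was the epithelial defensin DEFB1 at 6.43, 2.31 and 2.72 FPKM against 10.4, 3.86 and 5.18 FPKM.

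The granulocyte genes summed to 3065, 1745 and 4856 FPKM with LEP RNA and to 1329, 2081 and 1305 FPKM without, so that leptin 3 lay below WT 2. Higher values held within both labels for 15 of 17 members (88.2%, against 14.2% of all genes), with medians of 0.56 within the wild type label and 0.61 within the leptin label. Without the library labelled WT 1, 15 of 16 were higher with a median of 0.51, and 4 had an unadjusted p under 0.05 (25%, against 1.33% of all genes in that fit). Without WT 3 or without leptin 1 that number was 2 (11.8%, against 1% and 1.12%). Without leptin 2, 12 of 17 were higher with a median of 0.52, 5 of them at that p (29.4%, against 1.43%), and 1 gene was lower at it (5.88%, against 3.34%). The defining neutrophil receptors CSF3R and CXCR2 were not analysed here, and ELANE, a protease of immature neutrophils, was at 1.05 FPKM or less in every library. Whether granulocytes were carried over into some PBMC preparations was not tested. By label, the list had a median of -0.03.

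Of 21 monocyte genes tested, 14 were higher (66.7%, against 28.8% of all genes) and 7 lower, with a median of 0.13. Relative to the median of all genes 17 lay above. At an unadjusted p under 0.05, 3 were higher (14.3%, against 1.39%) and 1 was lower (4.76%, against 3.26%). After scaling 16 were higher, 5 of them at that p, where 2.93% of all genes were then higher at it. CD14, the co-receptor for bacterial lipopolysaccharide, was at 263, 166 and 291 FPKM with LEP RNA and at 121, 159 and 99.9 FPKM without (0.90, SE 0.26). CSF1R, the receptor that defines the lineage, was at 71.5, 50.8 and 60.1 FPKM against 73.8, 63.8 and 54.3 FPKM, with overlapping groups. The copy of CD68 on chromosome 8 went the other way, at 3.98, 2.98 and 4.05 FPKM against 7.49, 5.83 and 5.99 FPKM (-0.67, SE 0.16), while the copy on chromosome 12 was at 45.0, 24.2 and 40.6 FPKM against 25.5, 46.2 and 19.4 FPKM. Reads may be divided between these copies. The monocyte median was -0.08 without the library labelled WT 3 and -0.03 without leptin 2, but 0.28 without WT 2 or without leptin 3.

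**Figure D3:**
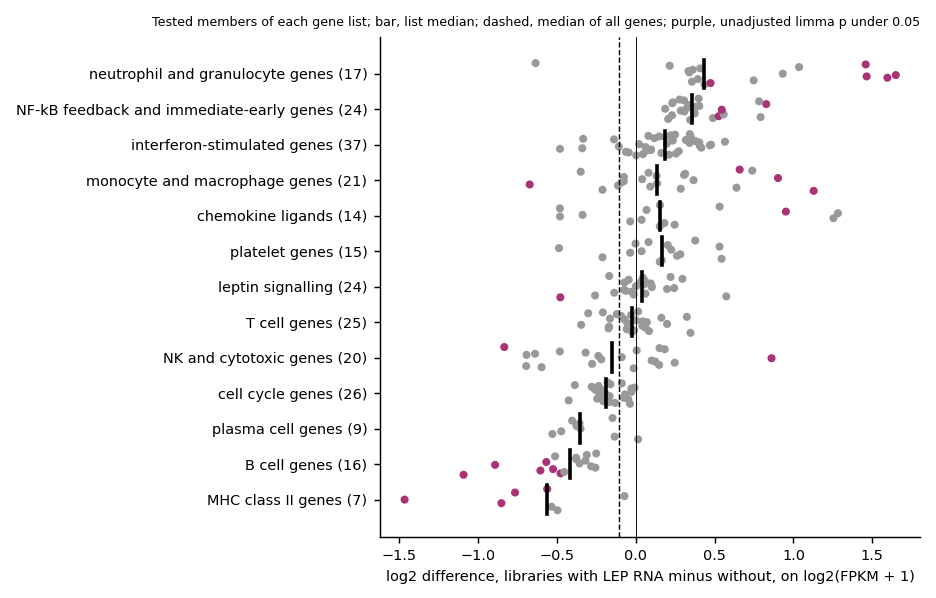
Difference between libraries with and without LEP RNA on the log2(FPKM + 1) scale (horizontal axis) for the tested members of 13 gene lists, with the number of members in brackets; bars mark list medians, the dashed line the median of all genes (-0.10), and purple points an unadjusted limma p under 0.05. B cell, MHC class II and cell cycle genes lie wholly to the left of 0 and NF-kB feedback genes wholly to the right.

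Genes of NF-kB feedback and the immediate-early response, which cells induce within minutes to hours of a stimulus or of handling, were higher in 24 of 24 cases in the libraries with LEP RNA. Their median was 0.36, and 24 of 24 remained higher after scaling. Rows ENSSSCG00000028056 and ENSSSCG00000010708 both carry the name ZFP36, with differences of 0.306 and 0.308, so the 24 rows hold fewer than 24 gene names. At an unadjusted p under 0.05, 3 were higher (12.5%, against 1.39%) and 3 did not overlap (12.5%, against 2.48%). JUNB, an AP-1 transcription factor, was at 779, 816 and 689 FPKM with LEP RNA and at 641, 412 and 533 FPKM without (0.55, SE 0.19). PLAUR, the urokinase receptor, was at 27.5, 26.7 and 24.9 FPKM against 22.8, 13.8 and 18.4 FPKM (0.53, SE 0.19; 0.35 without WT 2). DUSP1, a phosphatase that turns off MAP kinases, was at 509, 600 and 869 FPKM against 378, 556 and 225 FPKM (0.83, SE 0.34; 0.49 without WT 3), with overlapping groups. NFKBIA, the inhibitor that NF-kB itself induces, was at 212, 112 and 114 FPKM against 145, 72.1 and 93.4 FPKM (0.49, SE 0.32). FOS ranged most in the group without LEP RNA, at 146, 278 and 37.8 FPKM, against 167, 248 and 196 FPKM.

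The list summed to between 3649 and 3827 FPKM with LEP RNA and to between 2258 and 3023 FPKM without. The library labelled WT 3 was the lowest. Both labels gave higher values for 17 of 24 members (70.8%, against 14.2% of all genes), with medians of 0.54 and 0.20. Leaving out WT 3 left 22 of 24 higher with a median of 0.24 and 1 gene with an unadjusted p under 0.05 (4.17%, against 1% of all genes in that fit), and leaving out WT 1 left 24 of 24 with 4 (16.7%, against 1.33%). Leaving out WT 2 or leptin 1 gave 5 genes higher at that p (20.8%, against 2.27% and 1.12%). Without leptin 3, 23 of 24 were higher and no gene of the list had an unadjusted p under 0.05 in that direction, against 2.94% of all genes. By label the median was 0.27, from the same libraries.

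**Figure D4:**
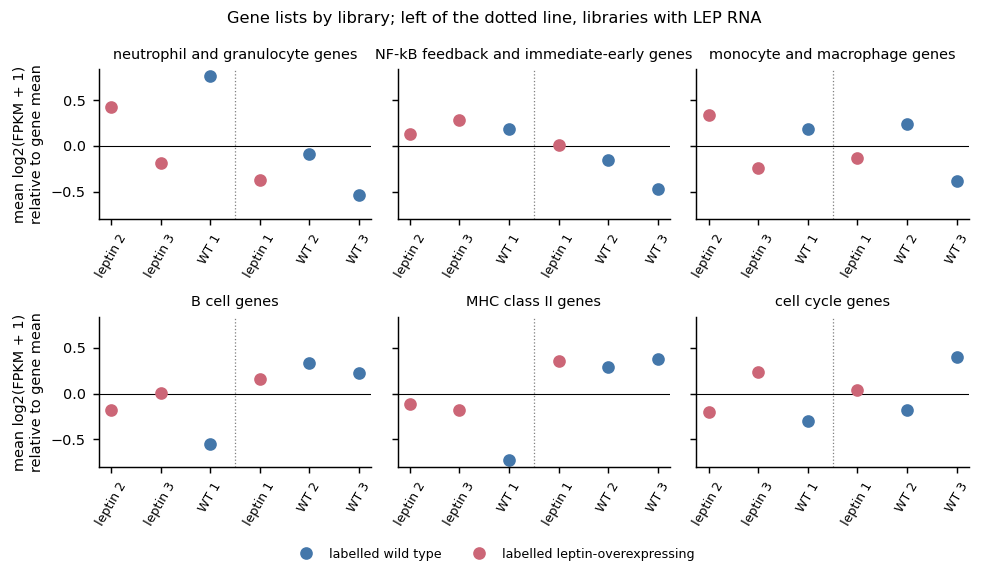
Mean log2(FPKM + 1) of the members of 6 gene lists in each library, relative to each gene's mean over the 6 libraries (vertical axes); libraries with LEP RNA stand left of the dotted line and colours show deposited labels. For B cell and MHC class II genes the library labelled WT 1 is the lowest, and for granulocyte genes it is the highest.

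Of the leptin signalling genes, 14 of 24 tested had the higher value with LEP RNA present (58.3%, against 28.8% of all genes) and 10 the lower, with a median of 0.04. Without WT 1, 10 were higher and 14 lower, and without leptin 1 or leptin 3 the split was 12 and 12. Within both labels 8 members were higher (33.3%, against 14.2% of all genes) and 7 lower (29.2%, against 53.5%). Relative to the median of all genes 20 of 24 lay above, and 20 of 24 were higher after scaling. The receptor LEPR and the feedback inhibitor SOCS3 were not analysed here. JAK2 was at 25.9, 27.6 and 26.8 FPKM with LEP RNA and at 23.4, 32.6 and 25.8 FPKM without (-0.01, SE 0.16; limma, adjusted p = 0.983). STAT3 was at 77.4, 69.0 and 99.5 FPKM against 66.0, 90.4 and 72.3 FPKM (0.10, SE 0.19; adjusted p = 0.883). The name STAT5A is carried by 3 rows (ENSSSCG00000017406, ENSSSCG00000017402 and ENSSSCG00000017408), and their differences were 0.052 (SE 0.17), 0.00161 (SE 0.16) and 0.095 (SE 0.30). For JAK2, STAT3 and each STAT5A row the groups overlapped, and the direction changed under at least 1 alternative. SOCS2, another inhibitor of cytokine receptor signalling and a STAT5 target, was at 13.4, 13.5 and 9.51 FPKM against 17.8, 15.2 and 18.5 FPKM (-0.48, SE 0.17) and was the only member with an unadjusted p under 0.05 (4.17%, against 4.65% of all genes). PIM1, a kinase induced by STATs, was at 172, 116 and 192 FPKM against 85.8, 178 and 75.03 FPKM (0.57, SE 0.34), with WT 2 among the highest. Among 11 rows of JAK kinases and STAT factors, 8 were higher and 3 lower with a median of 0.01, and no member had an unadjusted p under 0.05. Leaving out 1 library turned this split, to 3 higher and 8 lower without leptin 1, 4 and 7 without leptin 2, and 5 and 6 without WT 3 or leptin 3.

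Chemokine ligands, which recruit leukocytes, were higher in 10 of 14 with a median of 0.15. That median was 0.0031 without WT 3, 0.034 without leptin 2 and 0.32 without leptin 3. CCL4 was at 133, 65.7 and 16.4 FPKM with LEP RNA and at 53.7, 18.1 and 9.34 FPKM without (1.28, SE 0.81; limma, adjusted p = 0.821), a difference of 0.63 without leptin 2 and 2.09 without WT 1. All libraries labelled leptin-overexpressing lay above all of those labelled wild type for CCL4, and the difference by label was 2.38. CCL3L1, its close relative, was at 19.5, 5.34 and 6.53 FPKM against 4.92, 3.70 and 3.86 FPKM (0.95, SE 0.41; 0.43 without leptin 2). CCL3L1 alone of the 14 chemokine genes had LEP groups that did not overlap (7.14%, against 2.48% of all genes), and by label its difference was 0.72. CXCL2, a neutrophil attractant, was at 29.4, 23.3 and 27.7 FPKM against 27.0, 11.3 and 3.56 FPKM (1.25, SE 0.56). The CXCL2 difference was 0.58 without WT 3 and 1.89 without leptin 1, and by label it was 1.23. The cytokine TNF was at 47.5, 46.6 and 18.4 FPKM against 43.3, 8.76 and 35.9 FPKM (0.50, SE 0.60), with a difference of 1.29 by label. Of 13 proinflammatory cytokines, 9 were higher and 4 lower, and none had an unadjusted p under 0.05. Without WT 3, 6 were higher and 7 lower.

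Interferon-stimulated genes were higher in 30 of 37 with a median of 0.19, but none had an unadjusted p under 0.05. MX1, an antiviral GTPase, was at 365, 142 and 256 FPKM with LEP RNA and at 73.3, 544 and 101.3 FPKM without. The library labelled WT 2 was the highest of all for MX1 and the other libraries without LEP RNA the lowest. IFIT1 was highest in WT 2 and lowest in leptin 1 and WT 3 as well, at 1289, 794 and 961 FPKM against 537, 1426 and 475 FPKM. When WT 2 was left out, 32 of 37 were higher with a median of 0.51 against -0.15 over all genes in that fit, and 18 had an unadjusted p under 0.05 (48.6%, against 2.27% of all genes). When leptin 1 was left out, 16 of 37 were higher with a median of -0.02, and when WT 3 was left out 19 of 37 were.

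Of the T cell genes, 11 of 25 were higher (44%, against 28.8% of all genes), with a median of -0.02 and none with an unadjusted p under 0.05. Above the median of all genes lay 18 of 25, and 18 of 25 were higher after scaling. With 1 library left out, 4 of 25 were higher without WT 2 or without leptin 3, 6 without WT 1, and 21 without leptin 2. CD3E, a chain of the T cell receptor complex, was at 213, 372 and 299 FPKM with LEP RNA and at 340, 249 and 278 FPKM without. CD4 was at 27.3, 39.6 and 38.6 FPKM against 34.8, 21.9 and 26.0 FPKM. Of 11 regulatory T cell genes 6 were higher and 5 lower, and 8 of 11 were higher without leptin 2. FOXP3, the factor that defines these cells, was at 1.37, 2.83 and 1.98 FPKM against 2.48, 3.43 and 1.82 FPKM. CCR8, a chemokine receptor found on regulatory T cells, was the 1 member of 11 that did not overlap (9.09%, against 9.05% of all genes), a share at the background. It was at 0.700, 1.91 and 0.588 FPKM against 2.24, 2.32 and 2.24 FPKM (-0.72, SE 0.23).

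NK and cytotoxic genes were higher in 8 of 20 and lower in 12 (60%, against 71.2% of all genes). The split was 4 and 16 without WT 2, 11 and 9 without WT 3, and 10 and 10 after scaling. Without WT 2, 4 of 20 were lower at an unadjusted p under 0.05 in place of 1 (20%, against 3.62% of all genes in that fit). GNLY, the pore-forming granulysin, was at 248, 350 and 403 FPKM with LEP RNA and at 194, 105 and 283 FPKM without (0.86, SE 0.35; 0.48 without WT 2), with overlapping groups. KLRB1 (CD161) was at 1.26, 3.91 and 1.66 FPKM against 4.31, 4.26 and 4.98 FPKM (-0.83, SE 0.28). It was the 1 member of 20 that did not overlap and was lower (5%, against 9.05% of all genes), which is below the background.

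Cell cycle genes were lower in 26 of 26, where 71.2% of all genes were lower, with a median of -0.19 against -0.10, and none had an unadjusted p under 0.05. MKI67, the marker of dividing cells, was at 7.91, 14.7 and 9.77 FPKM with LEP RNA and at 10.6, 9.77 and 18.8 FPKM without. After scaling, 19 of 26 were lower, and without the library labelled WT 3 only 13 of 26 were. Without WT 1 the median was -0.076. Without leptin 3 the median was -0.34 against -0.15 over all genes in that fit, and 5 of 26 were lower at an unadjusted p under 0.05 (19.2%, against 7.97%).

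Platelet genes, made by megakaryocytes, were higher in 11 of 15 and none had an unadjusted p under 0.05. Without the library labelled WT 1, 5 of 15 were higher with a median of -0.08. Without leptin 3, 14 of 14 were higher with a median of 0.55, and 4 had an unadjusted p under 0.05 (28.6%, against 2.94% of all genes in that fit). PF4, the platelet chemokine, was at 312, 95.3 and 358 FPKM against 330, 146 and 237 FPKM. HBB, the beta chain of haemoglobin, was at 25.0, 97.1 and 211 FPKM with LEP RNA and at 17.7, 59.5 and 19.2 FPKM without, so the groups overlapped.

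Fat cell genes were looked at because LEP is a fat cell hormone. The defining markers ADIPOQ, PLIN1 and FABP4 were not analysed here. RETN, a hormone of fat cells and monocytes named resistin, was at 16.4, 9.65 and 18.3 FPKM with LEP RNA and at 6.39, 11.4 and 5.73 FPKM without (0.85, SE 0.30). GPD1, an enzyme of glycerol phosphate synthesis, was at 2.44, 3.30 and 1.84 FPKM against 3.48, 3.69 and 3.80 FPKM (-0.42, SE 0.18; -0.28 without WT 1). The complement factor CFD (adipsin) was at 1784, 1019 and 1035 FPKM against 965, 732 and 1004 FPKM. FABP3, a fatty acid carrier of muscle, was at 44.7, 0 and 46.9 FPKM against 0, 45.9 and 49.1 FPKM, so that 1 library with LEP RNA and 1 without it were listed at 0, both labelled leptin-overexpressing.

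Of 18 glycolysis genes 7 were higher and 11 lower, and of 19 fatty acid genes 7 were higher and 12 lower, where 71.2% of all genes were lower. After scaling, 11 glycolysis genes were higher and 7 lower, and 10 fatty acid genes were higher and 9 lower. SLC16A3, a lactate exporter, was at 51.5, 35.0 and 39.8 FPKM against 33.8, 25.0 and 31.4 FPKM (0.46, SE 0.19). ACACA, the rate-limiting enzyme of fatty acid synthesis, was at 1.15, 2.24 and 1.49 FPKM against 2.38, 2.23 and 3.23 FPKM (-0.47, SE 0.19).

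**Figure D5:**
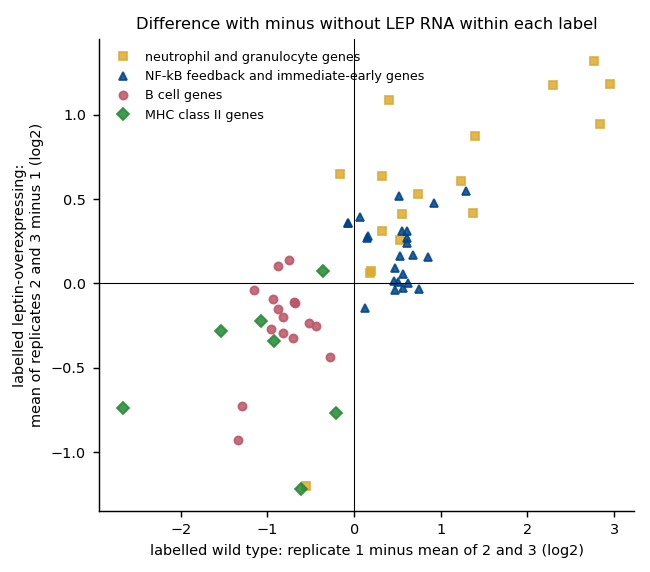
Difference between libraries with and without LEP RNA within the wild type label (horizontal axis; replicate 1 minus the mean of 2 and 3) and within the leptin-overexpressing label (vertical axis; mean of 2 and 3 minus replicate 1), on the log2(FPKM + 1) scale, for the members of 4 lists. Of the B cell genes 14 of 16 lie at the lower left, and of the granulocyte genes 15 of 17 in the upper right.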

How the data were processed

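RNA of pig PBMCs was sequenced from 6 strand-specific TruSeq libraries, with paired reads of 101 bp. FPKM values per gene were deposited, 1 column per library; the authors' processing notes name FastQC, STAR 2.5, Cuffnorm and DESeq 1.22.1, whereas the study's methods name Bowtie, RSEM and Ensembl version 75, so the route to the values is uncertain. The deposited log2 fold changes and the deposited p-values and FDR values are the authors' own comparisons and were not used. Genes without a symbol (4000) were named from a reference names table where it held them (1504). Some names, such as ARG1, PPBP, CD68 and ZFP36, are carried by more than 1 row, and each row was counted as a list member. Counts were not analysed here, so depth is unknown.

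The members and gene lists were chosen with earlier results of these data known. Libraries were grouped by LEP (1 FPKM or more), and log2(FPKM + 1) was fitted with limma 3.58.1 in R 4.3.3 (two-sided, Benjamini-Hochberg over 10734 genes at 1 FPKM or more in at least 3 libraries, LEP left out). A call needed an adjusted p under 0.05 and 2-fold. Named were the 10 largest differences with a symbol in each direction that passed, filled from those with an unadjusted p under 0.05 and no overlap, up to 3 members per list with the lowest unadjusted p under 0.05, JAK2, STAT3, STAT5A, LEPR, SOCS3, CCL4, CXCL2, CCL3L1, TNF and FABP3 where the table held them, and 2 genes without a symbol per direction; further list members are examples chosen after their values were seen. Alternatives were other pseudocounts, filters, scalings, variance models, terms and leaving out each library. The fit was tested on simulated data. Some members that met the rule are not reported here.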

Additional observations from a re-analysis of the deposited data

Results flagged for a closer look

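The STAT5A row ENSSSCG00000017402 differed in direction between the labels. Within the wild type label the library with LEP RNA differed by -0.24 on the log2(FPKM + 1) scale from the mean of the libraries without it, and by -0.098 from the nearer of them. Within the leptin label the mean of the libraries with LEP RNA lay 0.23 above the library without it, and the nearer of them 0.18 above. The difference between the labels was not tested, and the row is 1 of several that carry the name STAT5A.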

How the results depend on the processing

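The number of genes higher past the adjusted p and 2-fold, 2 as reported, was 0 with 1 FPKM required in all libraries or with loci under 300 bp left out, 1 with limma's trend and robust options, 1 without moderated variances, 24 with the unadjusted p in place of the adjusted, and 0 to 2 with 1 library left out. The number lower, also 2, was 0 with 1 FPKM in all libraries, 1 without loci under 300 bp, 0 without moderated variances, 1 with the deposited label as a term, 22 with the unadjusted p, and 0 to 5 with 1 library left out, 5 without leptin 2. At an unadjusted p under 0.05, the 149 higher became 315 and the 350 lower 178 after median-of-ratios scaling, and the lower became 620 with the label as a term. Leaving out 1 library gave 106 (without WT 3) to 312 (without leptin 3) higher and 161 (without WT 3) to 845 (without leptin 3) lower. No cause of these shifts was tested. The median of the leptin signalling genes was 0.13 after scaling and -0.0076 to 0.10 with 1 library left out, and 13 to 26 cell cycle genes were lower.

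The deviations of same-numbered libraries from their group means correlated at -0.224, -0.0254 and 0.222. Libraries of different number were not compared in this way, so whether replicate numbers pair the libraries stays undecided. With the replicate block, 2 genes passed in each direction and 177 higher and 324 lower had an unadjusted p under 0.05. Of named genes without a call, these changed direction. JAK2 was at 0.097 after scaling, 0.037 with the label term, 0.0031 with the Y-linked term (added after seeing the data) and -0.11 to 0.12 with 1 library left out. STAT5A ENSSSCG00000017402 was at -0.00325 with the label term, -0.023 with the Y-linked term, and -0.073 to 0.11 with 1 library left out. With 1 library left out, ENSSSCG00000017406 ranged from -0.017 to 0.17, ENSSSCG00000017408 from -0.17 to 0.38, STAT3 from -0.048 to 0.23 and TNF from -0.19 to 0.93. FABP3 was at 0.052 after scaling, 1.37 with the label term and -1.90 to 1.82 with 1 library left out. The red cell median was 0.072 with no filter on low values. The other genes for which alternatives were run kept their direction in them; the further list members given as examples, such as CD3E, MS4A1, CIITA and NFKBIA, had no alternatives run. FPKM without counts sets no limit of detection, and 3 libraries per group limit the precision.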
